A study of Mus musculus with 4 samples.

Results

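The mouse genes whose symbols run from Zfp900 to Zfp999 were examined in fetal brown adipose tissue (BAT). They were chosen by name, as the protein-coding genes of the count table with the symbol Zfp, a 9 and 2 more digits, and 63 of the 22298 listed genes met this rule. Most genes of this kind encode KRAB zinc finger proteins. Such a protein holds a row of C2H2 zinc fingers that bind DNA and an N-terminal KRAB domain that recruits the co-repressor Trim28, which in turn brings histone H3 lysine methyltransferases such as Setdb1. The family is known for silencing retrotransposons and imprinted regions, and it multiplied by local duplication, so that near-identical genes lie side by side in rodent clusters.

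RNA was sequenced from BAT of fetuses late in gestation (E18.5), labelled C57BL/6 and given as C57BL/6J in the study's methods. The dams drank sterilized tap water (control) or water with 20% (w/v) fructose (fructose) during gestation, with 2 libraries per group and 4 in all. The number of fetuses or litters behind a library is not given in the sources used here, so p-values measure only the spread between these libraries. The question is whether maternal fructose intake goes with a different level of these genes in the fetal tissue.

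The total counts were 19224529 and 18542897 in control replicates 1 and 2, and 22461298 and 23645147 in fructose replicates 1 and 2. A level is given as CPM after TMM normalization, and a count of 0 allows a level of up to 0.158, 0.166, 0.133 and 0.122 CPM in these libraries (3 counts, counting error only). All 4 libraries are labelled male. Summed over the Y-linked genes Uty, Kdm5d, Eif2s3y and Ddx3y, the control libraries had 422 and 390 counts and each fructose library had 0, which goes against the label of the fructose libraries. No fructose library free of this difference exists to repeat the comparison, so sex and fructose cannot be told apart here. The brown adipocyte markers fitted the labelled tissue, since all 12 were detected and Ucp1, the uncoupling protein of BAT and the most abundant of them, stood at 9705 and 12420 CPM in control and 11000 and 9606 CPM in fructose.

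By sequence, the name of the family held for nearly all members. A KRAB A box pattern was found in the annotated coding sequence of 59 of the 63 genes and at least 1 C2H2 finger pattern in all but 3 (Zfp935, Zfp957 and Zfp972), with a median of 11 fingers and up to 21, in Zfp974. The 4 without the KRAB pattern were Zfp956, Zfp957, Zfp972 and Zfp974. The longest transcripts ran from 561 bases (Zfp972) to 6618 bases (Zfp945), and their GC content from 33.2% (Zfp931) to 53.9% (Zfp956), with 58 of the 63 under 45%.

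All members were weakly expressed. Together they held 1221 and 976 counts in control and 2135 and 2480 counts in fructose, between 0.00526% and 0.0105% of a library. Summed over the 63 genes, the level was 64.4 and 54.1 CPM in control and 94.4 and 101.2 CPM in fructose. No read was counted in any library for 9 genes, namely Zfp936, Zfp976, Zfp978, Zfp981, Zfp985, Zfp986, Zfp987, Zfp988 and Zfp989, of which 7 lie in the chromosome 4 cluster and 2 in the chromosome 7 cluster. Another 15 had counts but were left out by the low-count filter (Zfp935, Zfp937, Zfp940, Zfp941, Zfp947, Zfp951, Zfp957, Zfp969, Zfp972, Zfp977, Zfp980, Zfp982, Zfp990, Zfp993 and Zfp995), and 39 were tested. In a fit without the filter, edgeR called 2 of the 15 higher, Zfp935 and Zfp940 (adjusted p = 0.023 and 0.036), beside 13.6% of all genes in that fit. Only 6 genes passed 100 counts in any library.

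Of the 39 tested members, 18 were higher in fructose and 0 were lower at an adjusted p under 0.05 (edgeR quasi-likelihood test on all 12888 tested genes, two-sided, Benjamini-Hochberg adjustment). Over all tested genes the same test called 15.5% higher and 10.7% lower. At an unadjusted p under 0.05, edgeR gave 23 members higher and 0 lower, beside 21.5% and 17.8% of all tested genes. DESeq2 gave 5 higher and 0 lower at an adjusted p under 0.05, among the 31 members for which it gave an adjusted p, beside 10.4% and 8.80% of all genes. The median log2 fold change was 0.98 over the 39 members and 0.0025 over all tested genes, and the members' median was also 0.98 with Zfp960, which has no control counts, set to its lower bound. Both fructose libraries lay above both control libraries for 30 of the 39 members and for 33.4% of all tested genes. However, 7 of the tested members (Zfp932, Zfp959, Zfp960, Zfp975, Zfp979, Zfp991 and Zfp994), all of them called, were under the level of the low-count filter in both control libraries and thus passed it through the fructose libraries. Among the other 32 members, 11 were called higher and the median was 0.61. The count of 18 fell to 8 without fructose replicate 1 and to 10 without fructose replicate 2. Only 5 of the 18 (Zfp942, Zfp943, Zfp960, Zfp966 and Zfp991) were called whichever library was left out, and the other 13 calls, among them that of Zfp970, were lost in at least 1 such fit. The fits with a library left out kept the filter result of the full set, which Zfp960 and Zfp991 passed only through the fructose libraries. Zfp960 has 0 counts in both control libraries and Zfp942 has 0 in control replicate 2. With the trend of counts on GC content removed from each library, 1 of the 39 members was called, as described with the GC content of the genes.

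**Figure D1:**
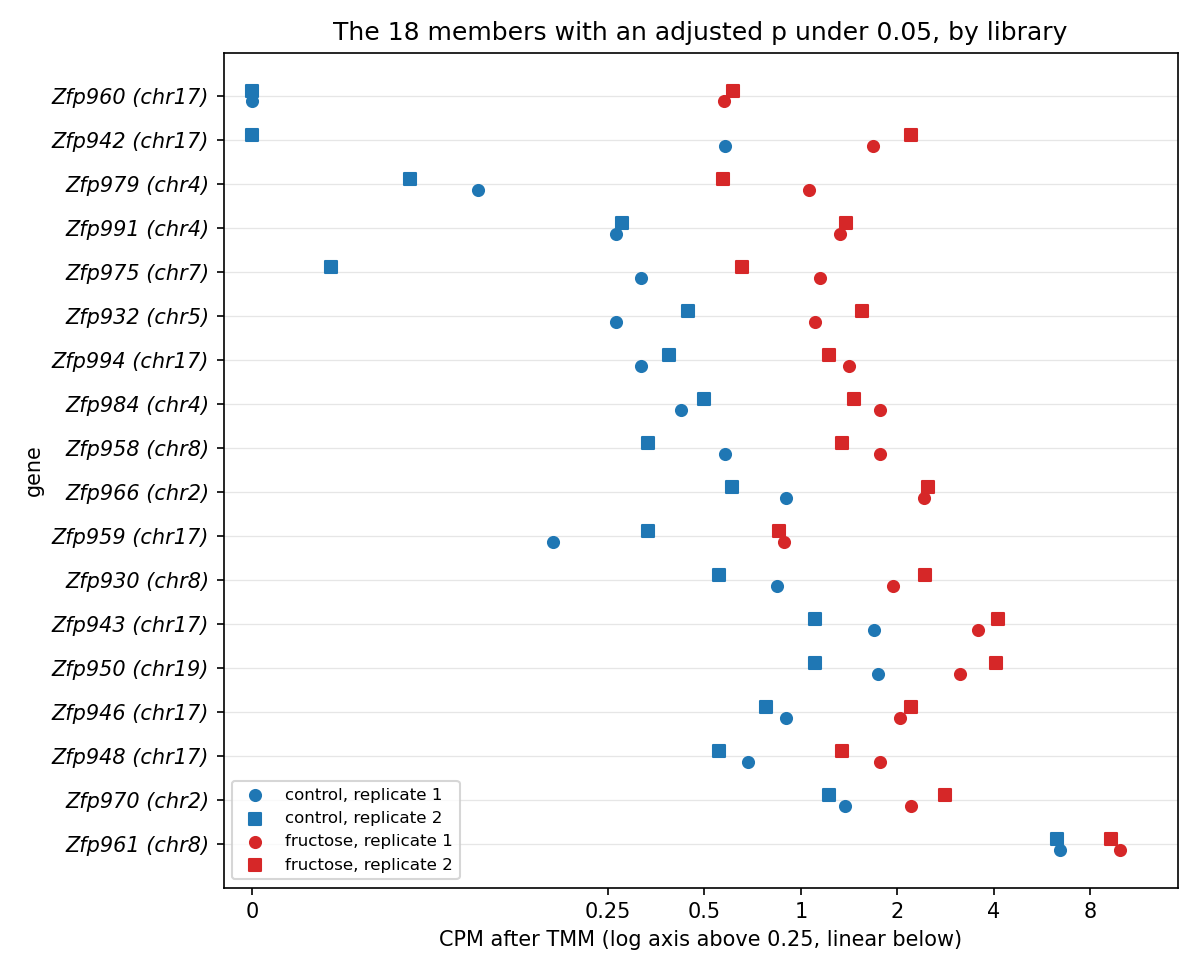
Level of the 18 members called higher in fructose, 1 row per gene, in CPM after TMM normalization on an axis that is logarithmic above 0.25 CPM and linear below. Circles and squares are replicates 1 and 2 of control (blue) and fructose (red), and in each row both fructose libraries lie above both control libraries.

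The members lie on 12 chromosomes of GRCm38 (mm10), and 43 of the 63 fall into 5 clusters of at least 3 members whose starts follow each other within 1 Mb. As a measure of shared sequence, each transcript was cut into windows of 75 bases, and a window was shared if a transcript of another gene held it. More than 50% of the windows were shared in 16 members and under 1% in 17, and the exons of 12 members overlapped those of another annotated gene. How the authors' counting treated such reads is not given in the sources used here, so values of these genes are uncertain. The 13 tested members with under 1% of shared windows had a median log2 fold change of 1.04 and 7 were called higher. The 7 tested members with more than 50% of their windows shared had a median of 1.19 and 3 were called higher. Of these 3 called genes, Zfp960 and Zfp991 passed the filter only through the fructose libraries, as no member of the 13 did. The other called gene was Zfp966 (1.70), while Zfp965, Zfp967, Zfp968 and Zfp973 stood at 0.47, 0.58, 1.19 and 0.45. Over all tested genes 15.5% were called higher, and 40.1% in the 1 in 5 with the lowest GC content, where most members lie.

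The chromosome 17 cluster (chr17:21567008-22867134) holds 10 members from Zfp948 to Zfp945. Its summed level was 11.4 and 7.26 CPM in control and 18.4 and 19.5 CPM in fructose, so the groups did not overlap and the ratio of the means was 2.03. Of 8 tested members, 5 were called higher, beside 15.5% of all tested genes and 40.1% in the lowest GC group. Of these 5, Zfp994 passed the filter only through the fructose libraries. The median log2 fold change of the 8 was 1.32, or 0.88 with the length and GC trends removed. Zfp943 (ENSMUSG00000053347, chr17:21962552-22071168, plus strand) had the most counts in the cluster, with 1.69 and 1.11 CPM in control and 3.58 and 4.12 CPM in fructose. Its lower fructose value was above its higher control value, with a log2 fold change of 1.45 (SE 0.30, edgeR adjusted p = 0.0051). Zfp942 starts beside Zfp943 on the minus strand (chr17:21926960-21962464), so that the pair are divergently arranged. It held 11 and 0 counts in control but 38 and 54 in fructose, where both libraries lay above both controls (log2 fold change 2.69, SE 0.67, edgeR adjusted p = 0.013). DESeq2 did not call Zfp942, with a log2 fold change of 2.73 (DESeq2 adjusted p = 0.39). The edgeR value rests on the control libraries, which differ: it was 1.74 without control replicate 2, the library at 0. Without control replicate 1 the only control library has 0 counts, so the fitted 8.41 is no exact fold.

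The remaining called genes of this cluster were Zfp946, Zfp948 and Zfp994. Zfp946 stood at 0.897 and 0.776 CPM in control and 2.034 and 2.204 CPM in fructose, and Zfp948 at 0.686 and 0.554 CPM in control and 1.77 and 1.35 CPM in fructose. Zfp994, which passed the filter only through the fructose libraries, had 6 and 7 counts in control and 32 and 30 in fructose. Within each of these genes the replicates of a group were close and the groups did not overlap. Zfp945, the gene with the longest transcript of all members and the last of the cluster, moved otherwise. Its level was 3.22 and 2.33 CPM in control and 2.87 and 2.45 CPM in fructose, with overlapping groups and a log2 fold change of -0.06 (SE 0.28, edgeR adjusted p = 0.89). Among the 5 other tested coding genes inside the cluster, 2 were called higher, beside 15.5% of all tested genes and 40.1% in the lowest GC group. Their median log2 fold change was 1.14, and they include Zfp229, Zfp758, Zfp760 and Zfp820. Of 16 such genes inside the chromosome 2 cluster, 3 were called higher and 1 lower, with a median of 0.61. They include Gm14288, which shares windows with Zfp970, and Gm14305, whose exons overlap those of Zfp973. For chromosome 8 such genes were Zfp868 and Zfp869, 1 of 2 called higher, with a median of 0.55. With a gap of 5 Mb, the chromosome 8 cluster held 77 such genes, 3 called higher and 23 lower, with a median of -0.21. The shares of all tested genes were 15.5% and 10.7%. At that gap, 5 of 21 and 5 of 13 were higher on chromosomes 13 and 17, with medians of 0.36 and 0.82.

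The chromosome 2 cluster (chr2:175372436-178078476) also holds 10 members, and together with the chromosome 4 cluster it is known for genes that silence endogenous retroviruses. Its summed level was 12.4 and 8.04 CPM in control and 16.6 and 18.4 CPM in fructose. The ratio of the means was 1.71, and 2 of 8 tested members were called higher, beside 15.5% of all tested genes and 40.1% of those in the 1 in 5 with the lowest GC content. The median log2 fold change was 0.68, and 0.32 with the length and GC trends removed. Zfp966 (ENSMUSG00000089756, chr2:175918881-175931100, minus strand) had 17 and 11 counts in control and 55 and 61 in fructose, and Zfp970 had 26 and 22 counts in control and 50 and 69 in fructose. Their log2 fold changes were 1.70 (SE 0.36, edgeR adjusted p = 0.0059) and 0.95 (SE 0.32, edgeR adjusted p = 0.044). Of the windows of Zfp966, 84.2% occur elsewhere, 65.5% in Zfp968. Zfp931 had the most counts in the cluster, at 2.90 and 1.89 CPM in control and 4.16 and 4.12 CPM in fructose. The groups of Zfp931 did not overlap, and its edgeR adjusted p, 0.050 when rounded, was just over the threshold.

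Counts in this cluster cannot always be assigned to 1 gene. The median share of windows held by another gene was 81.2%. Every window of Zfp965 occurs in Zfp973, and these genes held 27, 7, 26 and 34 counts and 27, 7, 27 and 32 counts in control 1, control 2, fructose 1 and fructose 2, nearly the same numbers. The groups overlapped in both genes. Whether the same reads were counted for both is not known, so summed levels may hold some reads more than once. Zfp967, Zfp968 and Zfp969 share between 99.6% and 100% of their windows with others, yet their counts differed: Zfp969 had 1 and 3 counts in control and 0 in each fructose library, while Zfp968 had 6 and 9 in control and 24 and 20 in fructose. Zfp967, among the 5 members with the highest level per exon length, had 33 and 25 counts in control and 43 and 68 in fructose (edgeR adjusted p = 0.21).

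The chromosome 4 cluster (chr4:145510759-147848366) has the most members, 16, of which 7 had no counts and 5 were tested. Its summed level was 4.22 and 3.38 CPM in control and 8.31 and 7.76 CPM in fructose, a ratio of 2.11. Zfp991, Zfp984 and Zfp979 were called higher, beside 15.5% of all tested genes and 40.1% in the lowest GC group. Of these, Zfp991 and Zfp979 passed the filter only through the fructose libraries. The median log2 fold change of the 5 was 1.80, or 1.27 with the length and GC trends removed. The rest of the 5, Zfp992, Zfp933 and Zfp984, stood at 0.23, 1.04 and 1.80. Zfp991 (ENSMUSG00000067916, chr4:147132038-147180579, plus strand) stood at 0.264 and 0.277 CPM in control and 1.33 and 1.39 CPM in fructose, and Zfp984 had 8 and 9 counts in control and 40 and 36 in fructose. For Zfp991 the log2 fold change was 2.30 (SE 0.48, edgeR adjusted p = 0.0056), but 80.0% of its windows occur elsewhere, 64.2% in Znf41-ps. The groups of both genes were apart. Zfp979 had 3 and 2 counts in control and 24 and 14 in fructose, a ratio of 5.97 with a 95% counting interval of 2.35 to 19.4 (exact binomial). Zfp992, with the most counts of the cluster, stood at 1.74 and 1.16 CPM in control and 1.28 and 2.12 CPM in fructose, and its groups overlapped. Zfp980 had 0 counts in control and 1 in each fructose library, too few for a fold.

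The chromosome 7 cluster (chr7:42579783-43192109) has 4 members, and 1 was tested. Zfp975 had 6 and 1 counts in control and 26 and 16 in fructose. The control libraries differed but both lay under both fructose libraries, with a log2 fold change of 2.21 (SE 0.68, edgeR adjusted p = 0.033) that was 1.48 without control replicate 2 and 3.88 without control replicate 1. Removing the length and GC trends gave 1.77. Zfp975 passed the filter only through the fructose libraries, so the cluster has no tested member that did not. Zfp977 had 0 counts in control and 1 and 2 in fructose. The chromosome 8 cluster (chr8:69209038-69749970) has 3 members, all tested, with a median log2 fold change of 0.55, or 0.40 with the length and GC trends removed. Of the 3, 1 was called higher, beside 15.5% of all tested genes and 40.1% in the lowest GC group. Zfp930 was called higher, from 0.844 and 0.554 CPM in control to 1.95 and 2.45 CPM in fructose (log2 fold change 1.64, SE 0.38, edgeR adjusted p = 0.0096), and none of its windows was shared. Zfp964 had the most counts there, with 1.74 and 2.49 CPM in control and 1.46 and 3.47 CPM in fructose, so the fructose libraries lay on either side of both controls.

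Outside the clusters lie 20 members, of which 14 were tested and 6 called higher (42.9%, against 15.5% of all tested genes and 40.1% of those in the lowest GC group). Of the 6, 3 passed the filter only through the fructose libraries. The tested members had a median log2 fold change of 0.55, or 0.37 with the length and GC trends removed. Zfp961 (ENSMUSG00000052446, chr8:71951038-71993792, plus strand) had the highest total count of all members. Its level was 6.44 and 6.32 CPM in control and 9.90 and 9.31 CPM in fructose, and the log2 fold change was 0.59 (SE 0.16, edgeR adjusted p = 0.020). No window of Zfp961 is shared, but its exons overlap those of Cyp4f18 on the opposite strand. Zfp950 on chromosome 19 stood at 1.74 and 1.11 CPM in control and 3.14 and 4.08 CPM in fructose (log2 fold change 1.34, SE 0.31, edgeR adjusted p = 0.0096). Zfp932 on chromosome 5, known to bind and silence endogenous retroviruses together with its paralog Gm15446, had 5 and 8 counts in control and 25 and 38 in fructose (log2 fold change 1.90, SE 0.49, edgeR adjusted p = 0.015). It shares 30.8% of its windows with Gm15446. Zfp958 had 11 and 6 counts in control and 40 and 33 in fructose, and Zfp959 had 4 and 6 in control and 20 and 21 in fructose.

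Zfp960 (ENSMUSG00000096696, chr17:17064113-17089628, plus strand) is the called member with no control counts. Its counts were 0 in each control library and 13 and 15 in fructose, so its level was at least 3.66-fold higher in fructose, taken against 3 counts per control library (edgeR adjusted p = 0.0053). It shares 76.2% of its windows with Zfp97, and reads of the pair cannot be told apart there. Zfp935 was similar, with 0 counts in control and 7 and 10 in fructose, at least 2.21-fold higher. All of its windows occur in other genes, 99.2% of them in Gm49359, which overlaps it on the same strand.

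The members with the highest level per length, on a TPM-like scale from counts and exon length (mean of the 4 libraries), were Zfp954 with 7.03, Zfp956 with 5.65, Zfp961 with 4.42, Zfp931 with 3.41 and Zfp967 with 2.67. With the longest transcript in place of all exons as the length, the first 5 were Zfp954, Zfp961, Zfp956, Zfp931 and Zfp971, with 6.51, 5.59, 4.70, 3.95 and 2.89, and Zfp967 came after them with 2.545. Zfp954 and Zfp956 hardly differed between the groups. Zfp954 had 6.81 and 7.04 CPM in control and 6.72 and 7.55 CPM in fructose (log2 fold change 0.04, SE 0.17, edgeR adjusted p = 0.88). Zfp956 had 6.65 and 6.99 CPM in control and 6.81 and 7.59 CPM in fructose (log2 fold change 0.08, SE 0.17, edgeR adjusted p = 0.77). These were also the tested members with the highest GC content, 50.1% and 53.9%. The lowest log2 fold change was that of Zfp938 on chromosome 10, with 0.739 and 0.887 CPM in control and 0.442 and 0.817 CPM in fructose (-0.35, SE 0.48, edgeR adjusted p = 0.62).

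Transcript length and GC content moved with the fold change across the whole table. Over 12884 tested genes with annotation, the log2 fold change had a Spearman's rho of 0.50 with the length of the longest transcript and -0.50 with its GC content. These values describe genes that share the 4 libraries and are not independent. Libraries of the same group differed along these trends too. For control 2 minus control 1, rho was 0.016 with length and 0.13 with GC content. For fructose 2 minus fructose 1, it was 0.17 and -0.20. The tested members were not long, with a median of 2741 bases against 3433 over all tested genes, but they were poor in GC, with a median of 38.1% against 50.01%. Over the 39 members, rho was 0.09 with length and -0.35 with GC content. Of the 39, 36 fell into the 1 in 5 of tested genes with the lowest GC content (31.0% to 44.1%), and all 18 called members were among them. In that group, 40.1% of the 2577 genes were called higher and the median log2 fold change was 0.45, while the median of the 36 members was 1.12. The 36 include the 7 members that passed the filter through the fructose libraries. Without genes under the filter level in both control libraries, a choice made after seeing the data, 11 of 29 members (37.9%) and 39.9% of 2499 genes of the group were called higher, with medians of 0.78 and 0.43. The share called was then no higher in the members than in the whole group. Shares called also depend on the level, with a median of 1.45 CPM over the 39 tested members and 15.9 CPM over all tested genes. What this difference in level did to the shares was not tested. In the 1 in 50 of tested genes with the lowest GC content, 258 genes with a median of 36.9%, the median log2 fold change was 0.74.

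**Figure D2:**
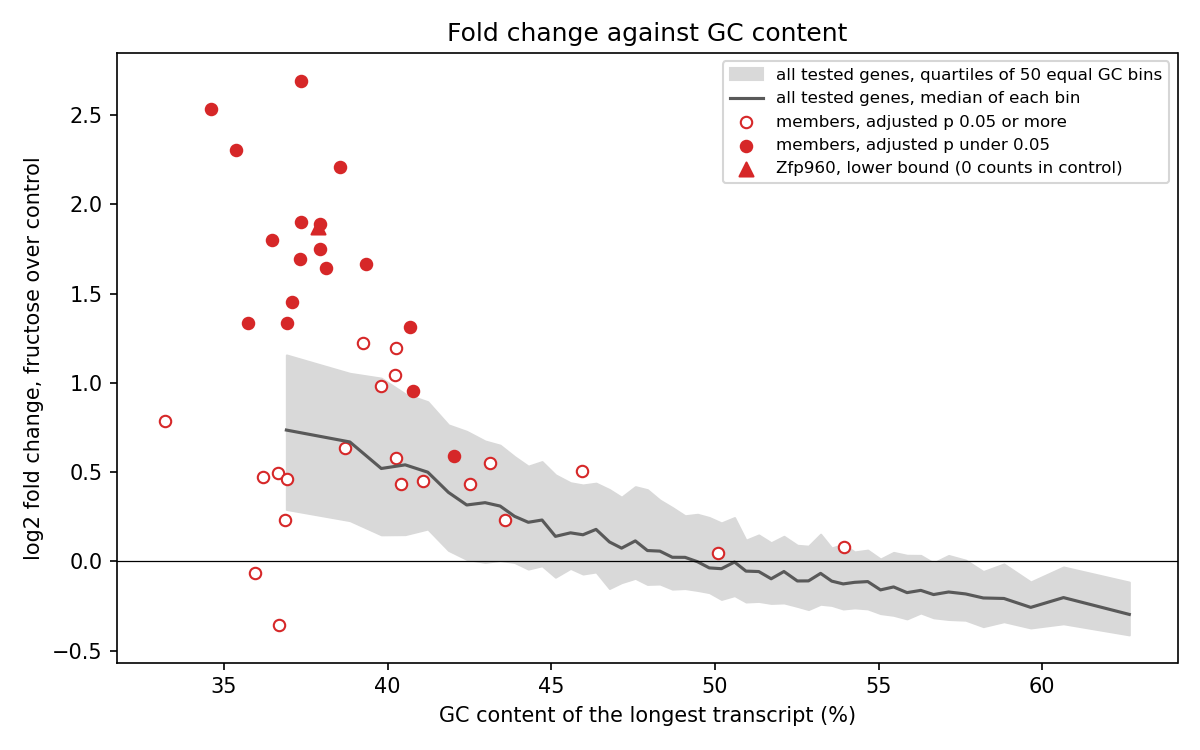
Log2 fold change of fructose over control (edgeR) against the GC content of the longest transcript, where the grey line and band give the median and quartiles of all tested genes in 50 bins of nearly equal size, red points are tested members (filled where the adjusted p is under 0.05) and the triangle is the lower bound of Zfp960. All filled points lie under 44.1% GC, where the grey line is highest.

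Removing the length trend from each library changed little, with 19 called higher, 0 lower and a median log2 fold change of 0.97, where 8.95% of all tested genes were called higher. Removing the GC trend had a larger effect. The median of the 39 members was then 0.49 against -0.01 over all tested genes, and 1 member, Zfp960, was called higher, beside 8.47% of all tested genes. With both trends removed, 1 member was called higher and 0 lower, beside 4.08% of all tested genes called higher, and the median was 0.58 with 33 of 39 members above 0. The called member was again Zfp960, whose fitted value has no control counts behind it. At an unadjusted p under 0.05, 17 members were higher and 1 was lower in that fit, beside 11.6% and 12.4% of all tested genes. Zfp991, Zfp966 and Zfp943 had log2 fold changes of 1.71, 1.19 and 0.95 with both trends removed, and edgeR adjusted p of 0.050, 0.053 and 0.054, all just over the threshold. Zfp945 fell to -0.93 (edgeR adjusted p = 0.052). The trends were drawn from the same 4 libraries, and how much of the difference they account for in single genes was not tested.

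**Figure D3:**
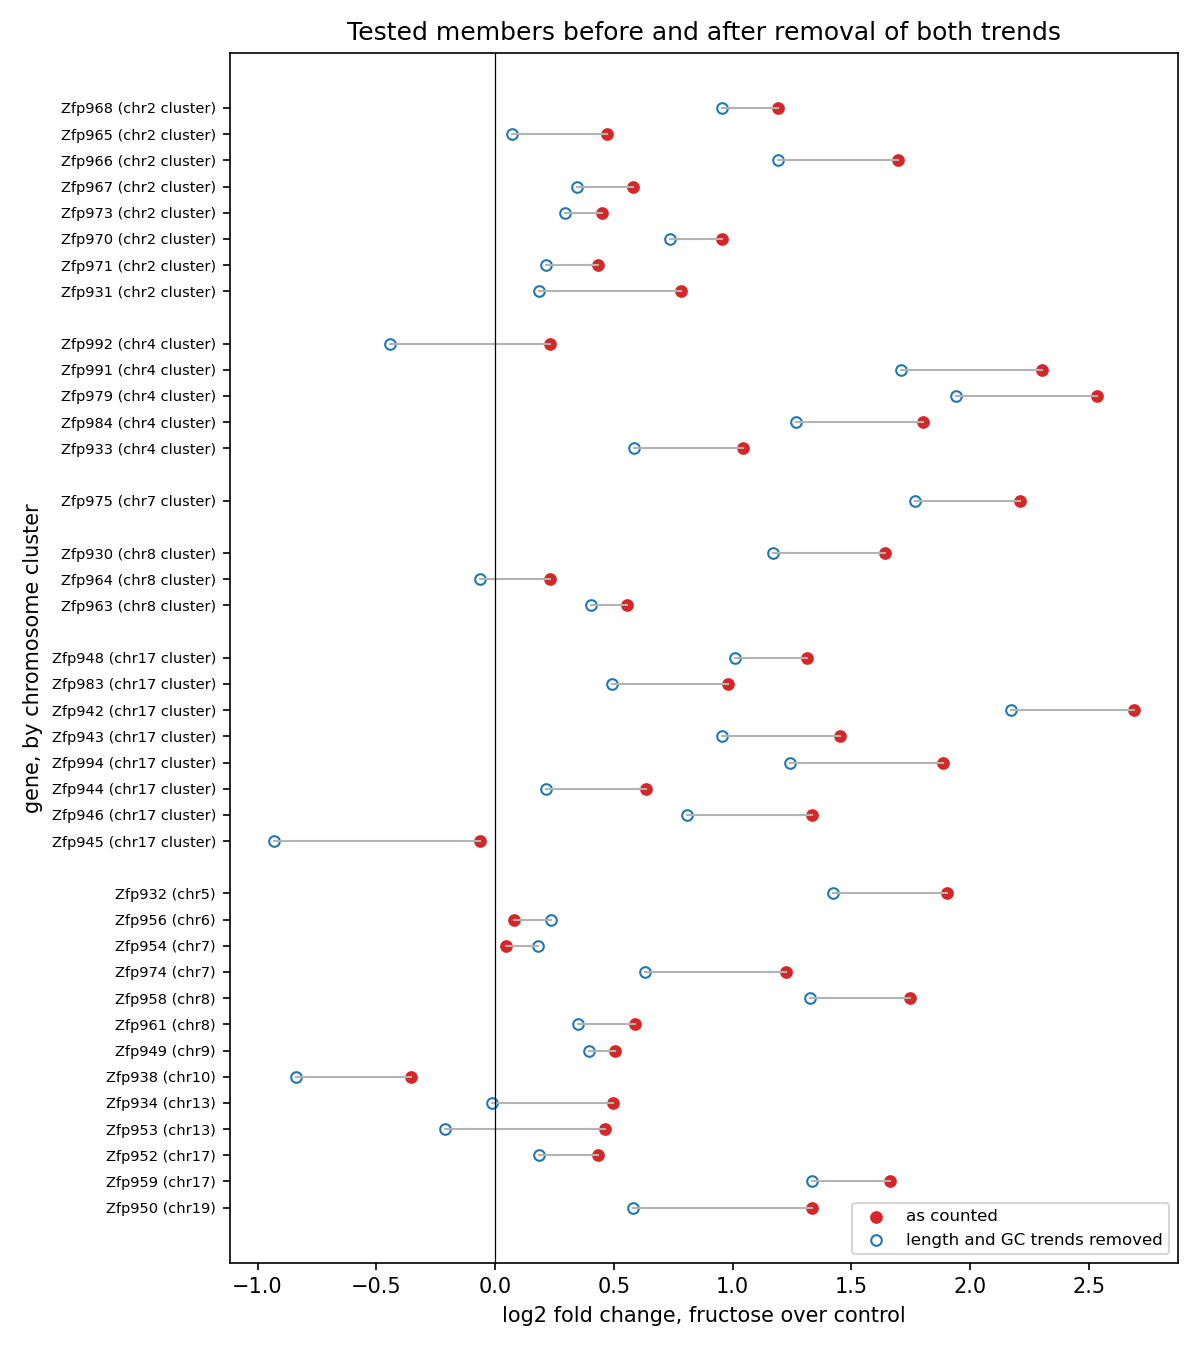
Log2 fold change of fructose over control for 38 of the 39 tested members, without Zfp960, ordered by cluster and position, where red points are values from the deposited counts and open blue points are values with the length and GC trends removed from each library. Most blue points lie to the left of their red points, and those of Zfp954 and Zfp956 lie to the right.

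The 302 other genes with a Zfp symbol, Zfp1 to Zfp899, mostly went the same way where they were called. Of 243 tested, 60 were called higher (24.7%, against 15.5% of all tested genes) and 7 lower (2.88% against 10.7%) by edgeR at an adjusted p under 0.05, with a median log2 fold change of 0.27 and a median GC content of 46.5%. In the 1 in 5 of genes with the lowest GC content, 42 of 90 were called higher and their median was 0.85. Of all 2577 genes in that group, 40.1% were called higher, with a median of 0.45. Members there gave 18 of 36 and a median of 1.12, including the 7 that passed the filter through the fructose libraries. With both trends removed, 12 were called higher (4.94%, against 4.08% of all tested genes) and 8 lower (3.29% against 4.41%), and the median was 0.10, so both shares were near those of all genes. The smallest adjusted p was that of Zfp445, known to guard imprinted regions, with 5.33 and 5.10 CPM in control and 14.8 and 19.3 CPM in fructose (log2 fold change 1.71, SE 0.17, edgeR adjusted p = 0.00018, and 1.24 with both trends removed, edgeR adjusted p = 0.0012). Zfp91, Zfp397 and Zfp871 followed, with log2 fold changes of 0.64, 1.55 and 1.03. With both trends removed these were 0.43, 0.95 and 0.18, and Zfp871 was no longer called (edgeR adjusted p = 0.47). These genes were compared by counts and medians only, and the difference between the lists was not tested.

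The co-repressor machinery that KRAB domains use was mostly called higher where it was called. Of 34 listed symbols 33 were found, since Tasor is a second name of Fam208a. The list includes Zfp57, a KRAB zinc finger gene that is also among the other Zfp genes. Of 32 tested genes, 13 were called higher (40.6%, against 15.5% of all tested genes) and 2 lower (6.25% against 10.7%). These calls are by edgeR at an adjusted p under 0.05. The median log2 fold change was 0.31. Trim28, the direct partner of the KRAB domain, was lower, from 122.1 and 118.5 CPM in control to 90.4 and 94.7 CPM in fructose (log2 fold change -0.38, SE 0.08, edgeR adjusted p = 0.0059), and its groups did not overlap. With both trends removed its value was -0.19 (edgeR adjusted p = 0.18). Setdb1, the H3 lysine 9 methyltransferase of the complex, stood at 27.4 and 28.1 CPM in control and 30.8 and 26.9 CPM in fructose (edgeR adjusted p = 0.73). The smallest adjusted p were those of Dnmt3a, a de novo DNA methyltransferase, Atrx, a chromatin remodeller, and Cbx5, the heterochromatin protein HP1 alpha. Their log2 fold changes reached 0.60, 1.64 and 0.47, and with both trends removed they were 0.28, 0.79 and -0.17 (edgeR adjusted p = 0.056, 0.0499 and 0.31). With both trends removed, 2 genes of the list were called higher (6.25%, against 4.08% of all tested genes) and 0 lower, and the median was 0.07. Atf7ip2 had no counts.

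Other measures of the libraries moved with the groups too. The share of counts on mitochondrial genes was 5.89% and 6.49% in control but 10.8% and 11.2% in fructose. Beside the 15.5% of all tested genes called higher and the 10.7% called lower, skeletal muscle and erythroid markers stood out. Of 10 skeletal muscle markers, 9 were called higher, none was at 0, and their summed level was 231 and 296 CPM in control and 672 and 493 CPM in fructose, with Acta1 (skeletal muscle actin) the most abundant. Of 7 erythroid markers 5 were called lower, and their sum, led by the globin Hbb-bs, was 19200 and 15290 CPM in control and 11770 and 12140 CPM in fructose. Of the 12 brown adipocyte markers, 3 were called higher (25%) and 2 lower (16.7%), with sums of 23570, 25510, 23660 and 21840 CPM in control 1, control 2, fructose 1 and fructose 2. Called genes were fewer in the other lists. None of 6 endothelial, 6 fibroblast and 5 Schwann cell and nerve markers was called by edgeR at an adjusted p under 0.05, while 1 of 6 macrophage markers was higher and 1 lower, and 1 of 5 proliferation markers (Mki67) was higher. With both trends removed, all 10 skeletal muscle markers were called higher and 0 of the 7 erythroid markers were called, with medians of 1.64 and -0.19, beside 4.08% of all tested genes called higher and 4.41% lower. Of the other lists, 2 brown adipocyte markers and 1 proliferation marker were then higher, and 1 brown adipocyte, 1 endothelial and 1 fibroblast marker lower. In bulk tissue, fewer cells of a type and less RNA per cell cannot be told apart. The part of these shifts in the levels of the zinc finger genes was not tested.

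The KRAB A box pattern was found in 59 of the 63 members, inside and outside the clusters. The stretches below were placed by this pattern, so some of their shared bases follow from the search. For each of the 5 clusters, the called member with the smallest adjusted p is shown by 102 coding bases of 1 exon, aligned without gaps, with capitals marking the 50 bases that are the same in all 5. They were read from GENCODE transcripts on GRCm38, for Zfp966 at chr2:175923005-175923106 (minus strand, exon 2), Zfp991 at chr4:147176756-147176857 (plus, exon 6), Zfp975 at chr7:42665034-42665135 (minus, exon 2), Zfp930 at chr8:69226352-69226453 (plus, exon 2) and Zfp943 at chr17:21990788-21990889 (plus, exon 3). The closest were Zfp966 and Zfp975, from chromosomes 2 and 7, with 84 of 102 bases the same, and Zfp991 and Zfp943, from chromosomes 4 and 17, with 83. Zfp930 and Zfp943 shared 60.
Zfp966: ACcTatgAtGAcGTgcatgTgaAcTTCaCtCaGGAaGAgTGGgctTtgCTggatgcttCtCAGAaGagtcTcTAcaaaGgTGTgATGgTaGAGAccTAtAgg
Zfp991: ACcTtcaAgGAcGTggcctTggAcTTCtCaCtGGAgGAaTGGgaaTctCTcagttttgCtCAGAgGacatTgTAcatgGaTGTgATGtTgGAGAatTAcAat
Zfp975: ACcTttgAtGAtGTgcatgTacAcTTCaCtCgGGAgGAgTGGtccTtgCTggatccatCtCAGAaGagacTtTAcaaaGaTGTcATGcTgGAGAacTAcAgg
Zfp930: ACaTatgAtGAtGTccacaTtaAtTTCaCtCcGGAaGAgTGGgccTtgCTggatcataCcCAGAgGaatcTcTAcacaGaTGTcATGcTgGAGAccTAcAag
Zfp943: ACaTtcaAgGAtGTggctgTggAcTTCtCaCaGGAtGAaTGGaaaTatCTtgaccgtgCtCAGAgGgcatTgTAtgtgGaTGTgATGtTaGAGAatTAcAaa

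Promoters of the members were read from RefSeq (GRCm38.p6), as 250 bases before to 50 after the annotated start. For 49 of the 63 members, 15 of them called higher, a promoter within 1000 bases of the gene's start was found. The letters CCAAT, or ATTGG when read on the other strand, were in 37 of the 49 (75.5%) and in 11 of the 15 called members (73.3%), against 37.4% of all 32851 promoters. GGGCGG, or CCGCCC on the other strand, was in 17 of the 49 (34.7%) against 35.7% of all, and TATAAA, or TTTATA on the other strand, in 0 of the 49 against 13.6% of all. Each member counts once, by the promoter nearest its start, while all 32851 promoters belong to 27025 genes and had no distance rule. Members that arose by duplication share promoter sequence, so they are not separate cases, and a match is a string of letters and not a bound site. The called members with the smallest adjusted p that have such a promoter are shown, with these motifs in capitals, for Zfp943 at chr17:21962309-21962608 (plus strand), Zfp966 at chr2:175931051-175931350 (minus strand) and Zfp950 at chr19:61140791-61141090 (minus strand). Zfp943 holds GGGCGG on the reverse strand and no CCAAT, and its window overlaps that of the divergent Zfp942. Zfp966 and Zfp950, from chromosomes 2 and 19, each hold CCAAT on both strands.
Zfp943: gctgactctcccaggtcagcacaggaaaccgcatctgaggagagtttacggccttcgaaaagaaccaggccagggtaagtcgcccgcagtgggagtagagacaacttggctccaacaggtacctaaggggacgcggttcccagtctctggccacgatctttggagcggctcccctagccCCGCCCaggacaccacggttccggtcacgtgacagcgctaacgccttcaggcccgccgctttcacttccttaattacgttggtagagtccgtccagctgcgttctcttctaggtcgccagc
Zfp966: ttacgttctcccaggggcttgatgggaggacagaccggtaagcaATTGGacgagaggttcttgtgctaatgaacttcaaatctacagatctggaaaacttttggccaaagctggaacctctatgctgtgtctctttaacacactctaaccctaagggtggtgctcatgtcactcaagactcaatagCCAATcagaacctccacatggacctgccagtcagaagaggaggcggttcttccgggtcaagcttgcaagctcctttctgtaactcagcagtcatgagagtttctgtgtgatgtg
Zfp950: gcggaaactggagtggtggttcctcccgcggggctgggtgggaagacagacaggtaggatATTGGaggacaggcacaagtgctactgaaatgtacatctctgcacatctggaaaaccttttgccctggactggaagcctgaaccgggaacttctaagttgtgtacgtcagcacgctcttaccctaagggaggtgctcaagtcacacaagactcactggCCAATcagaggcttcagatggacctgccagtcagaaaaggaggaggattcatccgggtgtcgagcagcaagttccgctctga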

How the data were processed

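Per the labels and the study's methods, the authors filtered reads with fastp, mapped them to mm10 with Bowtie2 2.0.0.5 and TopHat2 2.0.0, assembled transcripts with StringTie 2.2.0, merged them with Cuffmerge and deposited raw counts per gene. The counting tool and its treatment of strand and of reads matching several genes are not given in the sources used here. Symbols, coordinates, lengths and GC content came from GENCODE M21 (GRCm38), with no match for 43 genes. Genes kept by filterByExpr (minimum count 10) were tested with edgeR 4.0.16 in R 4.3.3 (quasi-likelihood, TMM, no covariate), and members were read from that table. Scripts were tested on simulated data.

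Alternatives were DESeq2 1.42.0, other scalings and filters, a replicate block, lowess removal of length and GC trends (span 0.3), library sizes without mitochondrial and haemoglobin genes, each library left out, the study's thresholds, a 5 Mb cluster gap and the longest transcript as length. Named with values were called members with groups apart, the 5 highest per length, the 3 lowest, those at 0 in control only, the highest of each cluster, up to 4 called genes per comparison list, Trim28, Setdb1 and the most abundant marker of a list. Zfp965, Zfp968, Zfp969, Zfp971, Zfp973, Zfp974, Mki67 and, by name only, untested members and those without the KRAB or finger pattern were named after their values were seen. Members and lists were chosen with earlier results of these data known.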

Additional observations from a re-analysis of the deposited data

How the results depend on the processing

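The 18 members called higher became 5 with DESeq2, 10 with at least 10 counts in every library (23 members tested), 1 with the GC trend removed, 1 with both trends removed and 5 with both trends removed and the replicate block, and they ranged from 8 to 22 with a library left out. Without genes under the filter level in both control libraries, chosen after seeing the data, they were 11. The study's thresholds (unadjusted p under 0.05 and fold change over 1.3) gave 23 with edgeR and, added after seeing the data, 16 with DESeq2, the study's tool. The other alternatives gave 18 to 22. The 0 called lower became 1, Zfp945, with both trends removed and the block, and stayed at 0 with each library left out (0 to 0). The median log2 fold change, 0.98, was 0.60 with at least 10 counts in every library, 0.49 with the GC trend removed, 0.58 with both removed and 0.58 with both removed and the block, and ranged from 0.80 to 1.37 with a library left out. All tested genes called, 3380, became 2162 without the length trend, 2223 without the GC trend, 1094 without both and 1587 without both and with the block, and ranged from 1793 to 3939 with a library left out. Fits without a library assume that the lone library of a group varies like the other group.

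The replicate numbers do not pair the libraries (correlation of deviations -0.0266 for control 1 with fructose 1). With the replicate number as a block, 21 members were called higher, 0 lower, and the median was 1.03.

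Of 26 named members with a fit, 17 were no longer called with the GC trend removed and 17 with both removed. Signs turned only for members that were not called. Zfp931 was at -0.095 with the GC trend removed. Zfp992 was at -0.46 with the GC trend removed, -0.44 with both and -0.46 with both and the block, and ranged from -0.18 to 0.55 with a library left out. Zfp964 was at -0.066 with the GC trend removed, -0.065 with both and -0.14 with both and the block, and ranged from -0.53 to 0.72. With a library left out, Zfp954 ranged from -0.041 to 0.13, Zfp938 from -0.87 to 0.011 and Zfp945 from -0.28 to 0.19. The cause was not tested. A gap of 5 Mb joined Zfp961 to the chromosome 8 cluster and Zfp960 to that on chromosome 17, and added a cluster of 3 on chromosome 13. The low-count filter left out 15 members with counts, and 2 of them, Zfp935 and Zfp940, were called higher without it (22 of 54 members).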
